A study of Mus musculus with 12 samples.

Results

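Chemokines and their receptors were followed in mammary tumours of 6 strains of mice, which differ in the form of the neu (ErbB2) oncogene that they carry. A gene was taken as a member when a gene probe of the array bore a name that begins with Ccl, Cxcl, Cx3cl, Xcl, Ccr, Cxcr, Cx3cr or Xcr followed by a digit, and each gene was read on its brightest probe over all arrays. The rule gave 50 genes of the 29742 gene names on the array, 35 ligands and 15 receptors. Of these, 49 were tested, among 29150 genes in all. The exception was Ccl22, a ligand of CCR4 made by dendritic cells and macrophages, which was well above background in tumour RNA on 2 of 24 arrays and in the reference on 0, so it has no usable ratio. Names are those of the array design. The accessions of 47 members were found in the current RefSeq gene table, and 3 members have since been renamed: Cxcl4 is now Pf4, Cxcl7 is Ppbp and Ccl27 is Ccl27a.

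Chemokines are small secreted proteins that direct the movement of cells, above all of leukocytes, through receptors coupled to inhibitory G proteins. The CC ligands act mainly on monocytes, T cells, eosinophils and dendritic cells, the CXC ligands that carry the ELR motif on neutrophils, and the CXCR3 ligands on activated T cells and natural killer cells. In mammary tumours they are made by tumour epithelium, fibroblasts, endothelium and infiltrating leukocytes. CXCL12, made by stromal cells, and its receptor CXCR4 are the pair most often studied in breast cancer cell migration.

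All tumours came from female mice carrying neu under the MMTV promoter, which drives expression in mammary epithelium and some other secretory epithelia. NDL25 stands for the parental MMTV/neu NDL2-5 strain. The MMTV/neundl-NYPD strain, as background, carries a receptor without the main tyrosines that ErbB2 phosphorylates in its own tail. In the strains MMTV/neundl-YB, -YC, -YD and -YE a site has been put back, the one that couples to Grb2 in YB and to Shc in YD. The age of the mice is not given in the labels, which state that they had borne tumours for 6 weeks. Each strain was represented by 2 pools of RNA from 5 tumours each, so the spread between pools understates that between tumours. Universal Mouse Reference RNA, which is pooled from several cell lines, was hybridised with each tumour pool on a pair of Agilent arrays (2 per pool) between which the dyes were swapped. The measure throughout is the log2 ratio of tumour over reference, the mean of those 2 arrays, and a difference between strains is a difference of such log2 ratios.

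Median tumour signal ran from 365 to 764 intensity units over the 24 arrays, against a local background of 39 to 64. The mean log2 ratio of 7 luminal markers lay within 1.73 to 2.40 in all 12 pools, above the reference. Milk and luminal probes also set which dye was read as tumour, so that sign is no independent check of the tissue. Erbb2 on its brightest probe stood at 1.65 in NDL25 pool 1 and 1.85 in YB pool 1, and at 3.42 to 4.19 in the other 10 pools, so comparisons of YB with NDL25 are also given without those 2 pools. The file headers place image extraction in 3 sessions. Session 1 held YD and YE, session 2 held NDL25, YB and YC pool 1, session 3 held NYPD, and YC pool 2 had 1 array in each of sessions 1 and 2. NYPD and session 3 therefore cannot be told apart, and no fit with the session as a block could be made for NYPD or for the F test. YB also stood apart in markers of salivary and oral epithelium, whose 9 genes had mean log2 ratios of 3.71 and 3.88 in the YB pools and -0.03 to 0.17 in the other 10. All 9 were called higher in YB against NDL25 and against NYPD (limma adjusted p under 0.05), as were 3.09% and 4.02% of all genes. The list was drawn up with earlier results of these data known, so this count is no independent evidence.

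Set against the reference mixture, 8 of the 49 members had a mean ratio more than 2-fold above it and 10 more than 2-fold below it. Ccl8 (mean of the 6 strain means 2.73), the macrophage product Ccl6 (2.64) and the epithelial chemokine Cxcl14 (2.13) were the ligands farthest above it. The receptors farthest above it were Ccr1 (1.51) and Ccr2 (1.46), both carried by monocytes and macrophages. The ligands farthest below were the neutrophil attractant Cxcl5 (-3.75), the macrophage inflammatory protein Ccl3 (-3.58) and Cxcl12 (-2.97). No receptor lay far below: Ccr9, the homing receptor for the gut, had -0.17, and the fractalkine receptor Cx3cr1 -0.06. In whole tumour RNA, fewer cells of a type and less RNA per cell cannot be told apart.

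Strain means of the chemokine genes spread unevenly. The range of the 6 strain means had a median of 0.53 over the 49 members and of 0.28 over all genes tested, and it exceeded 1 for 11 members (22.4%) against 5.3% of all genes. YB had the highest strain mean for 26 of 49 members (53.1%, against 23.5% of all genes), and YE the lowest for 17 (34.7%, against 16.5%). The high values of YB were uneven between its pools. YB pool 1 was the highest of the 12 pools for 23 members (46.9%, against 11.7% of all genes), and YB pool 2 for 4 (8.16%, against 13%). YB pool 1 was also the YB pool with the lower Erbb2 ratio, 1.85 against 4.19 in pool 2. The part of that difference in the chemokine values was not tested.

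**Figure D1:**
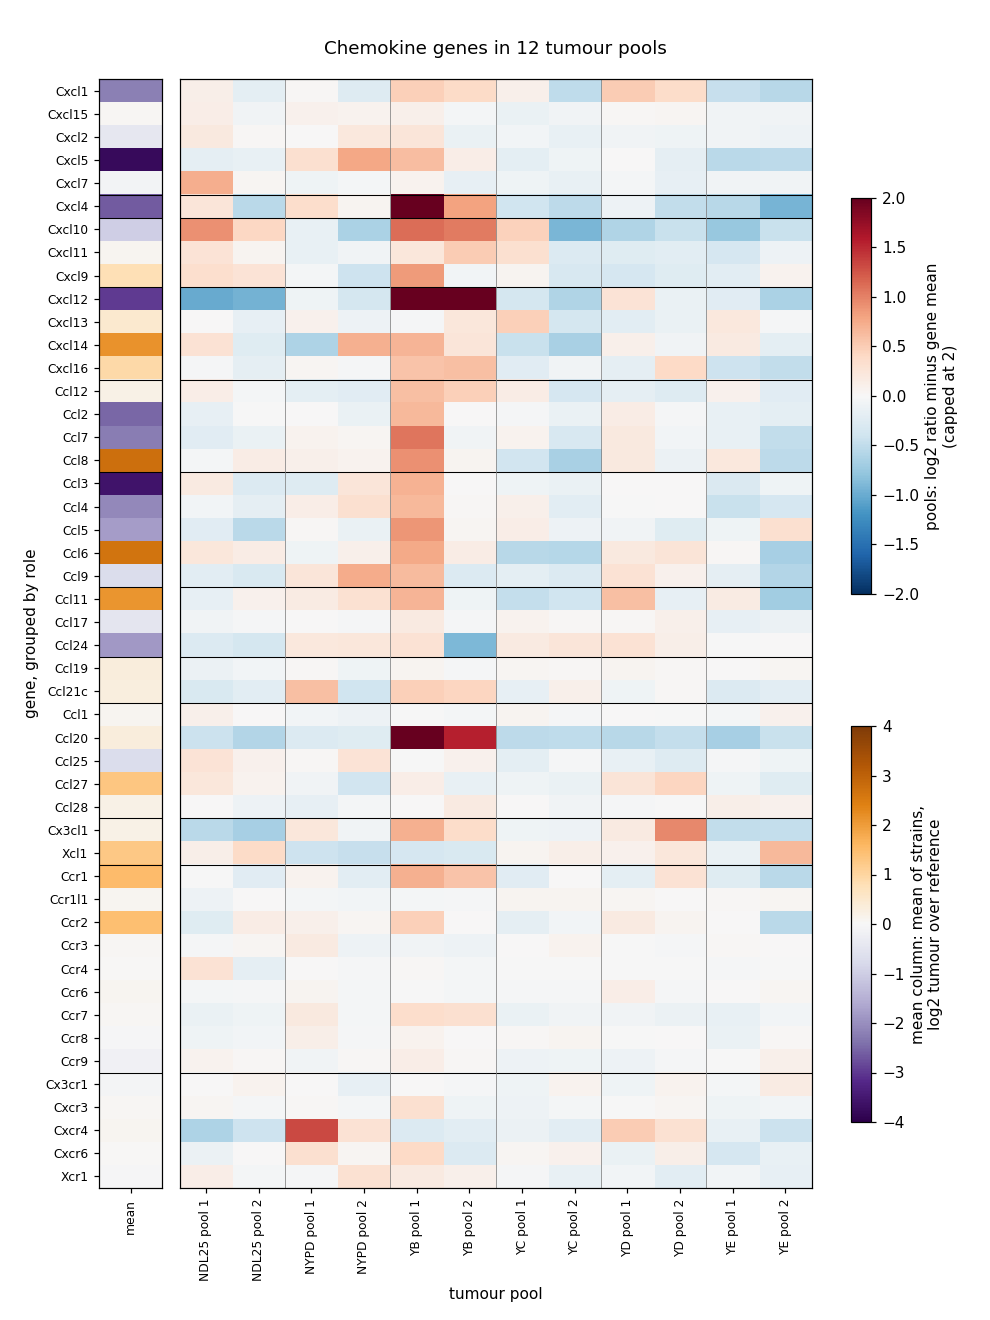
Heat map of 48 of the tested chemokine genes (rows, grouped by role) in the 12 tumour pools (columns). Pool cells show the log2 ratio minus the gene's mean, capped at 2, and the left column shows the mean log2 tumour over reference; Cxcl12 and Ccl20 are dark red in both YB pools, and Cxcl4 in YB pool 1.

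Differences among the 6 strains passed the F test for 2 of the 49 members (limma, Benjamini-Hochberg adjusted p under 0.05), Cxcl12 (adjusted p = 0.0028) and Ccl20 (adjusted p = 0.0358). This is 4.08% of the members, against 3.18% of all genes tested. At an unadjusted p under 0.05 there were 16 members (32.7%, against 21.3% of all genes). Cxcl12 passed in every fit that left out 1 pool. Ccl20 did not pass without either NDL25 pool, either YC, YD or YE pool, or either NYPD pool, and the count ran from 1 to 5 over those fits. Each such fit leaves a strain with 1 pool, assumed to vary like the others. Where the pool left out belongs to neither strain of a contrast, the difference stays the same. Only the shared estimate of spread and its degrees of freedom change, so a call lost or kept there reflects no change in the strains compared.

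YB tumours differed from NDL25 tumours in 4 chemokine genes, all higher in YB: Cxcl12, Ccl20, the fractalkine gene Cx3cl1 and Ccr7. These were 8.16% of the 49 members, against 3.88% of all genes called in either direction and 3.09% called higher in YB. The median difference was 0.26 over the members and -0.01 over all genes, and 39 of 49 members lay above 0, against 13707 of 29150 genes. Against NYPD, YB was higher in 3 genes, Cxcl12, Ccl20 and the monocyte attractant Ccl12. These were 6.12% of the members, against 5.09% of all genes and 4.02% called higher. The median difference was 0.13 over the members and 0.001 over all genes. Of the 49 members 37 lay above 0, against 14650 of 29150 genes. NDL25 and YB were both extracted in session 2, so that comparison lies within a session. Both comparisons use the same YB pools.

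Cxcl12, the stromal ligand of CXCR4, gave -3.98 and -3.92 in NDL25, -3.07 and -3.33 in NYPD, -0.94 and -0.95 in YB, -3.32 and -3.58 in YC, -2.70 and -3.11 in YD and -3.20 and -3.60 in YE. Both YB pools stood above the other 10, which ran from -3.98 to -2.70, and NDL25 was lowest on this probe. YB exceeded NDL25 8.05-fold (log2 3.01 ± 0.18 SE, n = 2 pools per strain, limma adjusted p = 0.000265). It exceeded NYPD 4.78-fold (log2 2.26 ± 0.18 SE, limma adjusted p = 0.00147). Another Cxcl12 probe gave a difference of 1.88 from NDL25 and 2.12 from NYPD, and its ratio in YB was 0.06 in pool 1 and -0.95 in pool 2. On that probe NYPD was lowest, with a strain mean of -2.56 against -2.33 in NDL25. The call against NDL25 held in all 21 alternative fits, with differences from 2.45 to 3.37. Without NDL25 pool 1 and YB pool 1 the difference was 2.98 (limma adjusted p = 0.0131, over a range of 0.000167 to 0.0182 across the alternatives). Even YB lay below the reference mixture, by 0.94 on the log2 scale. The 8 fibroblast markers, the usual source of Cxcl12, averaged 0.21 and -0.70 in YB, 0.08 and -0.52 in NYPD, and -1.74 to -0.46 in the other 8 pools. In YB against NDL25 all 8 lay above 0, with a median difference of 0.79. None passed there, and 2 (25%, against 17.2% of all genes) had an unadjusted p under 0.05. In YB against NYPD the median difference of these markers was -0.09, with 3 of 8 above 0, and none passed. Their part in the result was not tested.

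Ccl20, the epithelial ligand of CCR6 that draws dendritic cells and T helper 17 cells, gave -0.10 and -0.26 in NDL25, 0.06 and 0.09 in NYPD, 3.49 and 1.89 in YB, -0.20 and -0.17 in YC, -0.22 and -0.14 in YD and -0.34 and -0.11 in YE. The remaining 10 pools lay within -0.34 to 0.09, close to the reference, and both YB pools were far above them. YB was 7.30-fold above NDL25 (log2 2.87 ± 0.42 SE, limma adjusted p = 0.0142) and 6.12-fold above NYPD (log2 2.61 ± 0.42 SE, limma adjusted p = 0.0169). The YB pools differed from each other by more than the pools of any other strain, with an SD of 1.13. The difference from NDL25 was 2.07 without YB pool 1, 3.67 without YB pool 2 and 2.15 without both NDL25 pool 1 and YB pool 1. The call held in each of these fits. It was lost without NDL25 pool 1 (2.95, limma adjusted p = 0.0879) and without NDL25 pool 2 (2.79, limma adjusted p = 0.0913), within a range of 1.57e-05 to 0.257 over the alternatives. The call against NYPD was lost without NYPD pool 1 (limma adjusted p = 0.0613) and without NYPD pool 2 (limma adjusted p = 0.0722), within a range of 2.18e-05 to 0.0722. Its receptor Ccr6 lay within 0.02 to 0.20 in all 12 pools. YB was also the strain with salivary and oral epithelial markers, and the part of such cells in the Ccl20 result was not tested.

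**Figure D2:**
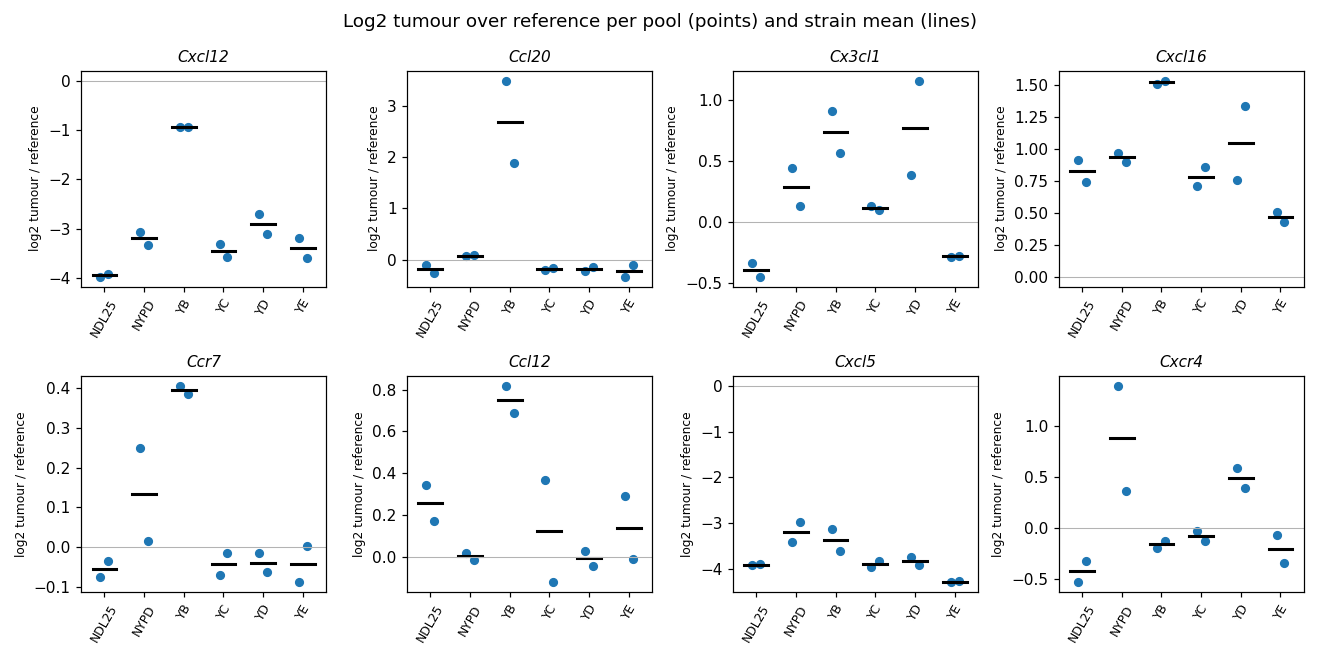
Log2 tumour over reference (y axis, a different scale in each panel) of 8 chemokine genes in the 6 strains (x axis). Points are the 2 pools of a strain and lines their mean; Cxcl12 and Ccl20 stand out in YB, Cxcr4 is highest in NYPD pool 1 at 1.40, and Cxcl5 is highest in NYPD and lowest in YE.

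Cx3cl1, a membrane-bound chemokine of epithelium and endothelium that is shed by ADAM10 and ADAM17, gave -0.34 and -0.45 in NDL25, 0.44 and 0.13 in NYPD, 0.91 and 0.57 in YB, 0.13 and 0.10 in YC, 0.38 and 1.16 in YD and -0.29 and -0.28 in YE. The pools of YB and YD were highest with 1 NYPD pool among them, and those of NDL25 and YE were below the reference. YB exceeded NDL25 2.20-fold (log2 1.14 ± 0.24 SE, limma adjusted p = 0.0423), and YD exceeded it by 1.17 ± 0.24 SE without passing (limma adjusted p = 0.139). The YB call was lost in 10 of the 12 fits that left out 1 pool, those without a pool of NDL25, YB, YC, YE or NYPD, at limma adjusted p from 0.0582 to 0.192. With the session as a block the call was also lost (limma adjusted p = 0.0787). Both strains lie in session 2, so that block left the difference at 1.14. The difference itself stayed between 0.97 and 1.31 over the alternatives. Without NDL25 pool 1 and YB pool 1 it was 1.02, and the call was lost. Its receptor Cx3cr1 gave -0.06 and 0.01 in NDL25, -0.06 and -0.22 in NYPD, -0.05 and -0.09 in YB, -0.14 and 0.004 in YC, -0.15 and 0.01 in YD and -0.11 and 0.10 in YE on the brightest probe, while another Cx3cr1 probe had strain means from 0.48 to 0.80. Neither Adam10 nor Adam17 passed the test in any comparison.

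Ccr7, the receptor that guides mature dendritic cells and T cells to lymph nodes, gave -0.08 and -0.03 in NDL25, 0.25 and 0.02 in NYPD, 0.41 and 0.39 in YB, -0.07 and -0.01 in YC, -0.01 and -0.06 in YD and -0.09 and 0.0024 in YE. The YB pools were highest and the range was small. YB exceeded NDL25 1.37-fold (log2 0.45 ± 0.08 SE, limma adjusted p = 0.0256). The call was lost in 8 of the 12 fits without 1 pool, those without a pool of NDL25, YB, YC or YD, at limma adjusted p from 0.0531 to 0.152. With the session as a block it had limma adjusted p = 0.0538, over a range of 0.0142 to 0.242. Of its ligands, Ccl21c had -0.00097 and 0.09 in NDL25, 0.90 and -0.10 in NYPD and 0.77 and 0.73 in YB, and 0.02 to 0.40 in the other 6 pools. Ccl19 lay within 0.19 to 0.37. Neither ligand passed in any comparison. The symbol Ccl21c belongs to a family of near-identical copies, so its probe cannot be tied to a single gene.

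Promoters of Ccl20, Cxcl12 and Cx3cl1, among the genes called in YB, are shown for comparison of the stretches read by transcription factors. That of Cxcl10, described further on, is shown with them. Those of Ccr7 and Ccl12, also called in YB, are not shown. RefSeq promoter windows for build GRCm38.p6 matched 38 of the 50 members, each 250 bases ending at the base before the start of transcription. Each sequence runs 5′ to 3′ on the gene's own strand, and capitals mark the motifs named after it.
Ccl20: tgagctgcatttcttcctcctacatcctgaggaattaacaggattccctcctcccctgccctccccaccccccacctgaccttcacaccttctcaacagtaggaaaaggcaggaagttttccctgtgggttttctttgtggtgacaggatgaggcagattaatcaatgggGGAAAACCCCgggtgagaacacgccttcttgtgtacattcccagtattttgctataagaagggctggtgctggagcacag
Cxcl12: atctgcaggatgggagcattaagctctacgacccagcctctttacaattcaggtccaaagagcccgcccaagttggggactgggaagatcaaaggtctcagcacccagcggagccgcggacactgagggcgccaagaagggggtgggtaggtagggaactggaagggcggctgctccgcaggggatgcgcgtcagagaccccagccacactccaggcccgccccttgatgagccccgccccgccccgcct
Cx3cl1: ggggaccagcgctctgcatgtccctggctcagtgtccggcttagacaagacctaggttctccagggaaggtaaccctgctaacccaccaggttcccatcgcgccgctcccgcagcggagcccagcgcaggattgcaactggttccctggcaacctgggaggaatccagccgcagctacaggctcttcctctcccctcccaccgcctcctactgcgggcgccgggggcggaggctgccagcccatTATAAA
Cxcl10: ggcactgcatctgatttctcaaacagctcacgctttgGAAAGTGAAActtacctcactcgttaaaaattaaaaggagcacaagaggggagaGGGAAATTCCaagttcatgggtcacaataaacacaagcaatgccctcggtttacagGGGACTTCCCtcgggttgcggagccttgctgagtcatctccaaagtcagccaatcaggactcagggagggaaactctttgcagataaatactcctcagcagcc
The Ccl20 window lies at chr1:83116516-83116765 on the plus strand, that of Cxcl12 at chr6:117168285-117168534 plus, that of Cx3cl1 at chr8:94771930-94772179 plus and that of Cxcl10 at chr5:92348890-92349139 minus. Searching both strands for the NF-kB consensus found GGGGTTTTCC on the minus strand of Ccl20, 80 to 71 bases before the start, and GGGAAATTCC and GGGACTTCCC on the plus strand of Cxcl10, 159 to 150 and 103 to 94 bases before it. The interferon response element core, GAAA and GAAA with 2 bases between them, was present in Cxcl10 as GAAAGTGAAA, 213 to 204 bases before the start. The Cxcl12 window held neither of these motifs nor TATAAA, and had 64.4% G and C with 14 CpG dinucleotides. Cx3cl1 had TATAAA 6 to 1 bases before the start. Among members with a window, 7 of 38 (18.4%) had the NF-kB consensus, against 4.46% of 27025 genes; they were Ccl20, Ccl9, Ccr3, Ccr6, Cxcl1, Cxcl10 and Cxcl2. The interferon element core was in 3 of 38 (7.89%, against 3.46%) and TATAAA in 12 of 38 (31.6%, against 14.3%). Matches within 1 gene that overlap on the 2 strands were counted once.

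**Figure D3:**
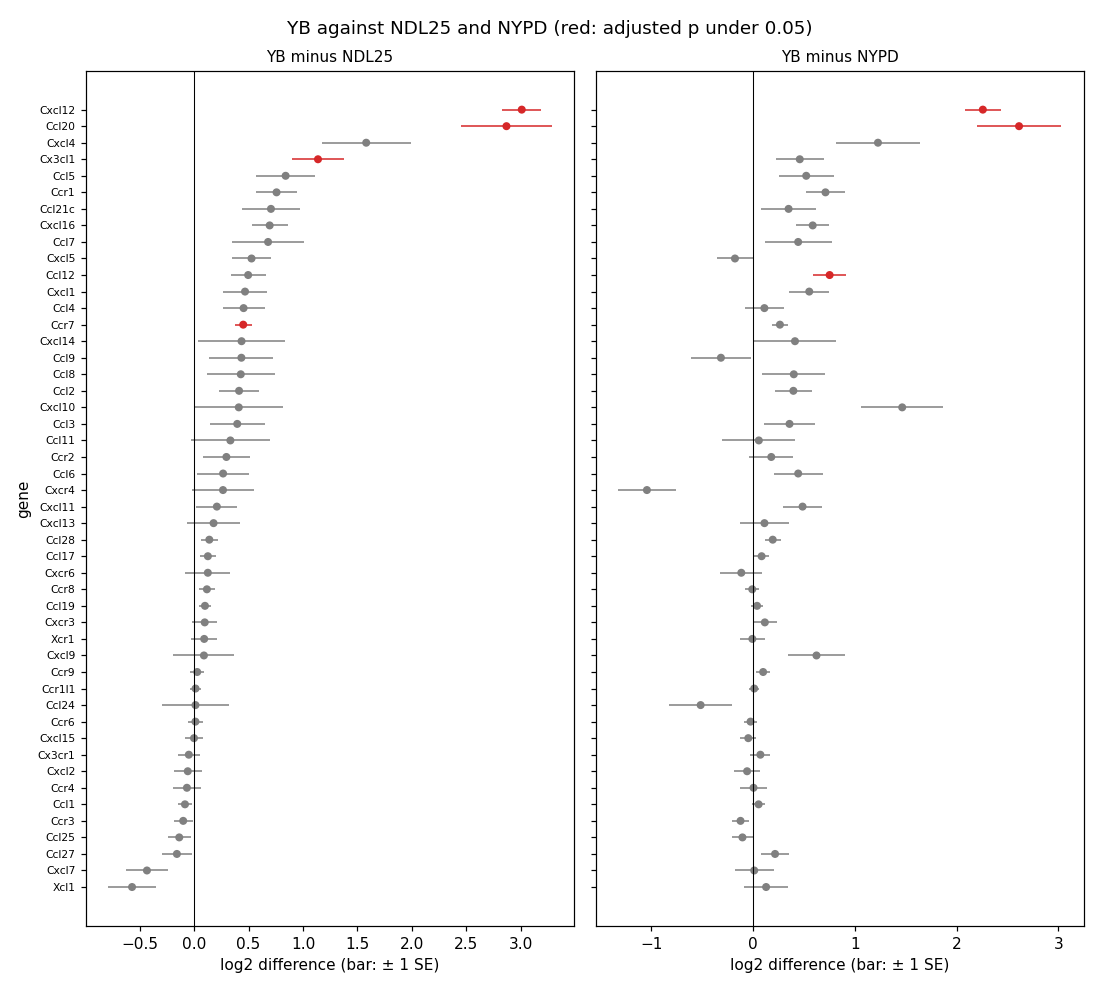
Difference in log2 ratio (x axis, with bars of 1 SE) of YB minus NDL25 (left) and YB minus NYPD (right) for the same 48 chemokine genes (y axis, ordered by the left panel). Red marks adjusted p under 0.05, which 4 genes reach on the left and 3 on the right, all above 0; the x scales of the panels differ.

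The ligands Ccl2, Ccl7, Ccl8 and Ccl12 each had their highest strain mean in YB and their highest value in YB pool 1. All 4 had YB above NDL25 and above NYPD, with median differences of 0.46 and 0.42. They parted in YB pool 2, where only Ccl12 stayed above the other strains. Ccl12 gave 0.34 and 0.17 in NDL25, 0.02 and -0.01 in NYPD, 0.82 and 0.69 in YB, 0.37 and -0.12 in YC, 0.03 and -0.04 in YD and 0.29 and -0.01 in YE, and both YB pools were above the other 10. It rose in YB against NYPD 1.68-fold (log2 0.75 ± 0.16 SE, limma adjusted p = 0.0415). That call was lost in 10 of the 12 fits without 1 pool, those without a pool of NDL25, NYPD, YB, YD or YE, at limma adjusted p from 0.0541 to 0.135, with a range of 0.0193 to 0.165 over the alternatives. Ccl2, Ccl7 and Ccl8 had their highest value in YB pool 1, at -1.87, -1.17 and 3.64. In YB pool 2 they stood at -2.51, -2.31 and 2.79, within the range of the other strains. Ccl8, the member farthest above the reference, gave 2.69 and 2.89 in NDL25, 2.83 and 2.81 in NYPD, 3.64 and 2.79 in YB, 2.35 and 2.09 in YC, 2.93 and 2.62 in YD and 2.95 and 2.21 in YE. Ccl2 and Ccl7 lay below the reference in all 12 pools.

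The inflammatory CC ligands Ccl3, Ccl4, Ccl5, Ccl6 and Ccl9 showed the same unevenness. Ccl3, Ccl4, Ccl5 and Ccl6 were each highest in YB pool 1, and none of the 5 genes of the group passed in any comparison. Ccl6 gave 2.87 and 2.78 in NDL25, 2.55 and 2.74 in NYPD, 3.39 and 2.79 in YB, 2.09 and 2.06 in YC, 2.83 and 2.89 in YD and 2.66 and 1.97 in YE, with both YC pools and YE pool 2 lowest. Ccl3 gave -3.41 and -3.86 in NDL25, -3.85 and -3.34 in NYPD, -2.90 and -3.58 in YB, -3.67 and -3.72 in YC, -3.58 and -3.58 in YD and -3.87 and -3.67 in YE, far below the reference throughout. Ccl5, a product of T cells and macrophages, was -0.90 in YB pool 1, -1.76 in YB pool 2 and -2.33 to -1.47 elsewhere. Its 2 probes agreed, with YB above NDL25 by 0.84 and 0.82. With YB pool 2 left out, 8 members passed against NDL25 in place of 4: Ccl2, Ccl4, Ccl5, Ccl7, Ccl20, Ccl24, Cxcl4 and Cxcl12. All genes called in that fit numbered 1093, against 1130 with every pool. With YB pool 1 left out, Ccl20 and Cxcl12 were again higher in YB than in NDL25, by 2.068 and 3.004. Ccl24 then differed in the opposite direction, lower in YB. Ccl24 stood at -1.58 in YB pool 1 and -2.77 in YB pool 2, on either side of the NDL25 mean of -2.18.

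The mean log2 ratio of 10 macrophage genes was 1.73 in YB pool 1, 1.12 in YB pool 2 and 0.39 to 1.15 in the other 10 pools. Each of the 10 was higher in YB than in NDL25 by mean, and 1 passed the test (10%, against 3.88% of all genes): Cd14, a co-receptor for bacterial lipopolysaccharide, with -0.53 and -0.57 in NDL25 and 1.55 and 1.87 in YB. A macrophage gene was also called higher in NYPD than in NDL25 (10%, against 1.03% of all genes). In YB against NYPD 0 of the 10 passed. The defining marker Csf1r gave 0.28 and 0.14 in NDL25 and 0.99 and 0.48 in YB and -0.09 to 0.47 in the other 8 pools. The defining marker Emr1 gave -0.26 and -0.23 in NDL25 and 0.65 and -0.03 in YB and -0.74 to 0.21 in the other 8. Neutrophil markers (7 genes) averaged 0.90 and 0.55 in YB and -0.11 to 1.06 elsewhere. The mean of the 13 T and natural killer cell markers lay within -0.11 to 0.08 and that of the 8 B cell markers within -1.34 to -1.0 in all pools. Of the B cell markers 1 was called lower in YB than in NYPD (12.5%, against 5.09% of all genes called in either direction). Of the neutrophil markers 1 passed the F test (14.3%, against 3.18% of all genes). The part of these cells in the chemokine results was not tested.

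The receptor Ccr1, shared by Ccl3, Ccl5, Ccl6 and Ccl9, gave 1.5 and 1.28 in NDL25, 1.57 and 1.30 in NYPD, 2.22 and 2.07 in YB, 1.27 and 1.52 in YC, 1.31 and 1.79 in YD and 1.27 and 0.97 in YE. Both YB pools were above the other 10, and the differences from NDL25 (0.76 ± 0.19 SE, limma adjusted p = 0.0773) and NYPD (0.71 ± 0.19 SE, limma adjusted p = 0.0782) did not pass. Ccr2, the receptor of inflammatory monocytes, gave 1.21 and 1.61 in NDL25, 1.55 and 1.5 in NYPD, 1.94 and 1.47 in YB, 1.28 and 1.40 in YC, 1.63 and 1.51 in YD and 1.47 and 0.92 in YE, with overlapping strains. Neither receptor passed in any comparison.

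Among the homeostatic CXC ligands, Cxcl16, a transmembrane ligand of CXCR6, gave 0.91 and 0.74 in NDL25, 0.97 and 0.90 in NYPD, 1.51 and 1.53 in YB, 0.71 and 0.85 in YC, 0.75 and 1.33 in YD and 0.51 and 0.43 in YE. Both YB pools were highest, followed by YD pool 2, and both YE pools were lowest. Against NDL25 the YB difference was 0.69 ± 0.17 SE (limma adjusted p = 0.0667). Of its 3 probes, the dimmer ones gave 0.46 and 0.70 for that difference. On the first of these YB was not highest, with strain means of 1.78 in YD, 1.70 in NYPD and 1.58 in YB. Cxcl14, an epithelial chemokine, gave 2.42 and 1.89 in NDL25, 1.51 and 2.85 in NYPD, 2.81 and 2.38 in YB, 1.69 and 1.49 in YC, 2.23 and 2.06 in YD and 2.31 and 1.94 in YE, and the NYPD pools differed from each other more than those of any other strain. Cxcl13, the B cell attractant, lay within 0.14 to 0.96.

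Cxcl4, platelet factor 4, gave -2.39 and -3.17 in NDL25, -2.28 and -2.58 in NYPD, -0.58 and -1.83 in YB, -3.04 and -3.16 in YC, -2.74 and -3.13 in YD and -3.19 and -3.56 in YE. Both YB pools were highest, but they differed by more than the 2 pools of any other strain. YB exceeded NDL25 by 1.58 ± 0.41 SE and NYPD by 1.23 ± 0.41 SE, and neither passed (limma adjusted p = 0.0863 and 0.144).

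NYPD tumours, whose receptor lacks the phosphorylation sites, showed no chemokine gene that passed against NDL25. In limma, 0 of 49 were called, against 1.03% of all genes, and 10 had an unadjusted p under 0.05 (20.4%, against 15.6% of all genes). The median difference was 0.04. Cxcr4, the receptor of CXCL12, gave -0.53 and -0.32 in NDL25, 1.40 and 0.37 in NYPD, -0.19 and -0.13 in YB, -0.03 and -0.13 in YC, 0.59 and 0.39 in YD and -0.06 and -0.34 in YE. NYPD pool 1 was highest, followed by both YD pools and NYPD pool 2. Its difference of 1.31 ± 0.29 SE did not pass (limma adjusted p = 0.0796), and another Cxcr4 probe had strain means of 0.39 in NYPD and -0.39 to -0.04 in the others. Cxcl12 and Cxcl5 were higher in NYPD by 0.75 ± 0.18 SE and 0.71 ± 0.18 SE, and Xcl1, a product of natural killer and CD8 T cells, differed by -0.70 ± 0.22 SE. The other Cxcl12 probe had the opposite sign for this comparison, at -0.23. These 3 genes did not pass either, with limma adjusted p of 0.0986, 0.115 and 0.18. Over the fits without 1 pool, 0 to 2 members passed, and Cxcr4 and Ccl21c did so without NYPD pool 2. Ccl24 passed without either YB pool and Xcl1 without either YE pool.

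The other CXCL12 receptor is on the array as Cmkor1, now Ackr3, a scavenger that binds CXCL12 without G protein signalling. It gave -1.12 and -1.11 in NDL25, -0.04 and -0.38 in NYPD, -0.66 and -0.53 in YB, -0.75 and -0.74 in YC, -0.41 and -0.66 in YD and -1.04 and -1.16 in YE. NYPD was highest and NDL25 and YE were lowest, with no overlap between NYPD and either. It rose in NYPD against NDL25 by 0.91 ± 0.12 SE (limma adjusted p = 0.0284), was lower in YE than in NYPD by a difference of -0.89 (limma adjusted p = 0.0249), and passed the F test (limma adjusted p = 0.0347). All genes passed at 3.18% in the F test, 1.03% in NYPD against NDL25 and 1.82% in YE against NYPD. Of the 9 tested chemokine genes with names outside the rule, Cmkor1 was the only 1 to pass in these comparisons (11.1%). The others included the neutrophil receptors Il8ra and Il8rb, now Cxcr1 and Cxcr2, which lay within -0.07 to 0.28 and -0.38 to 0.01.

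YE tumours were lower than NYPD tumours in 1 chemokine gene, Cxcl5. This was 2.04% of the members, against 1.82% of all genes and 1.02% called lower. The median difference was -0.18 over the members and 0.01 over all genes, with 13 of 49 members above 0, against 15589 of 29150 genes. Cxcl5, an ELR ligand of neutrophils, gave -3.93 and -3.90 in NDL25, -3.43 and -2.98 in NYPD, -3.14 and -3.62 in YB, -3.95 and -3.84 in YC, -3.75 and -3.93 in YD and -4.29 and -4.28 in YE. Both YE pools were lowest, and NYPD overlapped only YB. It was lower in YE 2.11-fold (log2 -1.08 ± 0.18 SE, limma adjusted p = 0.0362). The call was lost in 9 of the 12 fits without 1 pool, those without NYPD pool 2 or without a pool of YE, YD, YC or NDL25, at limma adjusted p from 0.0574 to 0.204, with a range of 0.0201 to 0.227 over the alternatives. The 8 fibroblast markers averaged 0.08 and -0.52 in NYPD and -1.16 and -1.74 in YE, with a median difference of -1.13. All 8 lay below 0 and none passed, though 7 (87.5%, against 19.3% of all genes) had an unadjusted p under 0.05. The 10 macrophage markers averaged 1.15 and 1.14 in NYPD and 0.70 and 0.39 in YE, with a median difference of -0.52 and 1 of 10 above 0. Of these, 1 passed (10%, against 1.82% of all genes): Cd14, lower in YE by a difference of -2.13 ± 0.27 SE (limma adjusted p = 0.0191). The 7 neutrophil markers averaged 0.26 and 1.06 in NYPD and 0.03 and 0.05 in YE, with a median difference of -0.01 and 3 of 7 above 0. The part of these cells in the result was not tested. Among the other ELR ligands, Cxcl1 gave -2.09 and -2.40 in NDL25, -2.19 and -2.47 in NYPD, -1.73 and -1.83 in YB, -2.10 and -2.71 in YC, -1.70 and -1.84 in YD and -2.66 and -2.77 in YE, with YB and YD highest and both YE pools and YC pool 2 lowest, and did not pass. Cxcl2, Cxcl7 and Cxcl15 lay within -0.57 to -0.18, -0.27 to 0.62 and -0.10 to 0.18, and the highest Cxcl7 value was NDL25 pool 1.

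YC, YD and YE against NDL25, and YC and YD against NYPD, gave 0 chemokine calls each in limma. All genes were called at 0.00686% for YC and for YD against NDL25, 0% for YE against NDL25, 0.0172% for YC against NYPD and 0.0206% for YD against NYPD. At an unadjusted p under 0.05 the members numbered 4, 7, 4, 6 and 5 in that order, which is 8.16%, 14.3%, 8.16%, 12.2% and 10.2% of them, against 11.3%, 10.3%, 7.52%, 10.2% and 10.8% of all genes. The smallest limma adjusted p among members was 0.105, for Cxcl12 in YD against NDL25, where the difference was 1.04 ± 0.18 SE. Xcl1 had its highest value in YE, at 1.93 in pool 2 against 1.14 in pool 1. Xcl1 was well above background in the reference on 17 of 24 arrays, so its ratios have a less certain base than those of the other tested members.

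Of the 3 CXCR3 ligands, Cxcl10 and Cxcl11 were high in the pools of session 2. Cxcl10 gave -0.08 and -0.58 in NDL25, -1.14 and -1.63 in NYPD, 0.12 and 0.04 in YB, -0.54 and -1.91 in YC, -1.60 and -1.44 in YD and -1.76 and -1.45 in YE, and Cxcl11 gave 0.35 and 0.12 in NDL25, -0.08 and -0.01 in NYPD, 0.30 and 0.58 in YB, 0.38 and -0.20 in YC, -0.17 and -0.14 in YD and -0.26 and -0.04 in YE. In both, the 5 pools extracted wholly in session 2 stood above the other 7. These were the only 2 of 49 members to do so (4.08%, against 0.127% of all genes), and they were picked out after their values were seen. Strain and session can be told apart in YC alone, whose pools stood at -0.54 and -1.91 for Cxcl10 and at 0.38 and -0.20 for Cxcl11. Cxcl9 gave 1.15 and 1.08 in NDL25, 0.77 and 0.40 in NYPD, 1.65 and 0.76 in YB, 0.86 and 0.48 in YC, 0.48 and 0.57 in YD and 0.59 and 0.88 in YE, where the groups overlapped. No CXCR3 ligand passed in any comparison, and Cxcl10 in YB against NYPD had 1.47 ± 0.40 SE (limma adjusted p = 0.0862). Without either YC pool that last difference passed. The 11 other interferon response genes tested had means of 0.79 and 1.07 in NDL25, 0.86 and -0.03 in NYPD, 0.20 and 0.58 in YB, 1.48 and 1.07 in YC, 0.32 and 1.04 in YD and 0.65 and 1.24 in YE, which overlapped between sessions, and 0 of 11 passed the F test, 0 also at an unadjusted p under 0.05. Cxcr3 lay within -0.07 to 0.36.

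**Figure D4:**
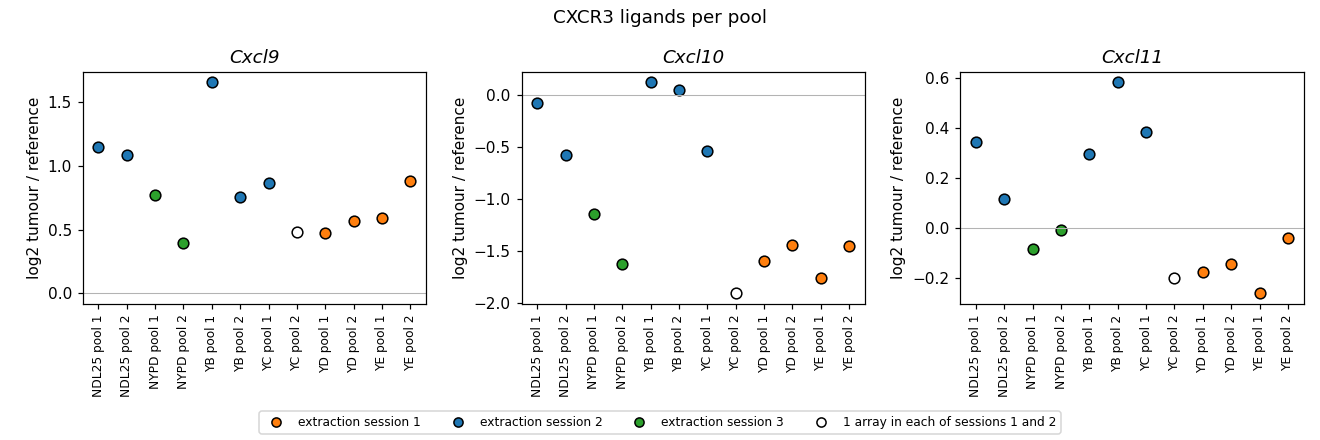
Log2 tumour over reference (y axis) of the 3 CXCR3 ligands in each of the 12 pools (x axis), coloured by extraction session. For Cxcl10 and Cxcl11 the 5 points of session 2 lie above the other 7; for Cxcl9 they overlap, and the open point is YC pool 2, read in 2 sessions.

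None of the remaining members passed in any comparison or in the F test. The eosinophil attractant Ccl11 lay within 1.40 to 2.78 and Ccl24 within -2.77 to -1.58, the latter with its lowest value in YB pool 2. Ccl17, a ligand of CCR4, lay within -0.65 to -0.30. Of the epithelial ligands, the skin chemokine Ccl27 lay within 0.92 to 1.73, with both YD pools above the other 10 (F test, limma adjusted p = 0.172), the mucosal chemokine Ccl28 within 0.05 to 0.39 and the CCR8 ligand Ccl1 within -0.03 to 0.19. The thymic ligand Ccl25 lay within -0.94 to -0.42 on its brightest probe, and a dimmer probe of the same accession agreed in side, at strain means of -0.76 to -0.37, while the probe of another transcript gave 0.27 to 0.62. Xcr1, the receptor of XCL1 on cross-presenting dendritic cells, gave 0.08 and -0.10 in NDL25, -0.08 and 0.26 in NYPD, 0.12 and 0.04 in YB, -0.08 and -0.20 in YC, -0.11 and -0.26 in YD and -0.11 and -0.21 in YE, and a far dimmer probe for it had strain means of -0.02 to 0.08. Ccr9 gave -0.10 and -0.14 in NDL25, -0.24 and -0.14 in NYPD, -0.04 and -0.15 in YB, -0.26 and -0.25 in YC, -0.26 and -0.19 in YD and -0.18 and -0.07 in YE, below the reference in all pools but by little. Ccr8, a receptor of regulatory T cells, gave -0.15 and -0.11 in NDL25, 0.07 and -0.07 in NYPD, 0.02 and -0.05 in YB, -0.03 and -0.01 in YC, -0.06 and -0.05 in YD and -0.18 and -0.04 in YE. Ccr3, Ccr4, Ccr1l1 and Cxcr6 had ranges of -0.05 to 0.23, -0.16 to 0.31, -0.01 to 0.13 and -0.32 to 0.42.

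Signalling genes downstream of the receptors changed in few places. Of 22 tested, 2 passed the F test (9.09%, against 3.18% of all genes): Elmo1, which links receptors to Rac activation, and Rgs2, which shortens G protein signals. Elmo1 gave 2.39 and 2.27 in NDL25, 1.66 and 1.82 in NYPD, 1.20 and 1.23 in YB, 1.79 and 1.98 in YC, 1.52 and 1.73 in YD and 1.86 and 1.54 in YE, highest in NDL25 and lowest in YB, and fell in YB against NDL25 by 1.12 on the log2 scale (SE 0.13, limma adjusted p = 0.00616). Rgs2 gave 0.56 and 0.84 in NDL25, 1.11 and 1.47 in NYPD, 2.27 and 1.70 in YB, -0.10 and 0.61 in YC, 1.95 and 0.85 in YD and 2.91 and 3.39 in YE, highest in YE (F test, limma adjusted p = 0.0465). Pik3cg, the kinase that chemokine receptors activate through G protein subunits, was lower in YB than in NYPD by a difference of -1.15 ± 0.22 SE (limma adjusted p = 0.029), with 0.74 and 0.63 in NYPD and -0.38 and -0.55 in YB. Dock2, the Rac activator of leukocytes, was higher in NYPD than in NDL25 by 0.47 (limma adjusted p = 0.0484).

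Of 10 genes that cut or capture chemokines, 1 passed, in YE against NYPD (10%, against 1.82% of all genes). This was Mmp12, the macrophage elastase, which gave 0.91 and -0.09 in NDL25, 1.81 and 3.42 in NYPD, 0.61 and 0.81 in YB, 0.83 and 0.76 in YC, -0.33 and 0.08 in YD and -0.78 and -0.84 in YE. It was far lower in YE than in NYPD (log2 -3.43 ± 0.50 SE, limma adjusted p = 0.0262), and NYPD pool 2 was its highest value. In that comparison 8 of the 10 genes had an unadjusted p under 0.05, against 19.3% of all genes. Of 15 tested cytokine inducers and NF-kB response genes, 1 passed, in YB against NDL25 (6.67%, against 3.88% of all genes). This was Icam1, higher in YB by 0.77 (limma adjusted p = 0.0488), with -0.99 and -0.98 in NDL25 and 0.10 and -0.52 in YB. The inflammatory cytokine Il1b, which induces several of these ligands, gave 0.44 and 0.14 in NDL25, 1.52 and 1.19 in NYPD, 1.86 and 1.23 in YB, 0.83 and 0.11 in YC, 1.02 and 1.47 in YD and 0.40 and -0.09 in YE and did not pass, while Tnf lay within -0.37 to 0.12 and Ifng within -0.01 to 0.25.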

How the data were processed

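Per the file headers, the deposited scanner files from Agilent Feature Extraction hold mean and background intensity in each channel. The authors also deposited 1 log2 ratio per pool and probe, made with RMA, limma and R 2.3.0 per the submitters' processing notes; the base of that logarithm is an assumption here. Intensities were corrected by normexp (offset 50) and loess-normalised within arrays in limma (3.58.1, on R 4.3.3; files were read with the data.table package, version 1.17.8). Of 41174 probes, 702 were left out as flagged, 312 as well above background in tumour RNA on fewer than 4 arrays and 11010 as dimmer probes of a gene. The labels do not say which dye held tumour RNA, so this was read from 22 milk and luminal probes, and Lalba and Afp gave the same answer on all 24 arrays. Lalba is itself a milk gene. The median of 19 reference-tissue probes lay within -0.15 to 0.15, on most arrays with the same sign as the milk and luminal median. That set therefore gave no backing to the reading. The 2 arrays of a pool correlated at -0.89 or below before turning, and were averaged after it. The deposited log2 ratios correlated with these at 0.98 or above. One limma model with 6 strain means gave an F test and 9 contrasts, Benjamini-Hochberg adjusted over 29150 genes at 0.05; residual degrees of freedom were 6 plus 1.75 from the prior, and the median SE was 0.108. With 2 pools per strain, the number of samples limits the precision. The model was tested on simulated data.

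Members, gene lists and tests were chosen with earlier results of these data known. Named with every pool's value were members called in any test, the 8 ligands and 5 receptors with the smallest F test p, the 3 ligands and 3 receptors farthest above and farthest below the reference, and members at background. Of the gene lists, only some called genes and some others were named. Genes called in the lists of B cells, neutrophils, dendritic cells, eosinophils and mast cells, endothelium, and luminal, salivary and oral epithelium were not named. One tested receptor that these rules name is not reported here; it stays in the counts. Cxcl9, Cxcl10, Cxcl11 and members mentioned for 1 pool or a left-out fit were added after their values were seen.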

Additional observations from a re-analysis of the deposited data

How the results depend on the processing

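Each count was recomputed under 7 other choices of processing where they could be fitted, with each of the 12 pools left out in turn, and under 2 further choices made after seeing the data. No called member changed sign in any of them. For YB against NDL25 the 4 members called became 2 with median centring, 2 with the session as a block, 2 without NDL25 pool 1 and YB pool 1 (chosen after seeing the data) and 1 with the pools of session 2 alone (likewise); without 1 pool the count ran from 1 to 8. For YE against NYPD the 1 call became 0 with the deposited log ratios, and 0 to 2 without 1 pool. The F test count of 2 ran from 1 to 5 without 1 pool. NYPD against NDL25 ran from 0 to 2, YC against NYPD from 0 to 1 and YB against NYPD from 2 to 4. With the pool number as a replicate block, NYPD against NDL25 went from 0 calls to 1 (Cxcl12) and the F test from 2 to 4. The labels give the pool numbers no shared meaning; across genes the pool differences of 2 strains correlated at -0.168 (NYPD and YC) to 0.717 (YC and YD), so not every pair of strains shared them. The causes of these shifts were not tested. The session block could not be fitted for the F test or the NYPD contrasts, and its term rests on the YC pools alone. NDL25 and YB both lie in session 2, so the block left the differences between them unchanged. For YB against NDL25 it called the same members as leaving out a YC pool. Over all genes the counts moved more: 1130 calls for YB against NDL25 ran from 148 to 1227 without 1 pool and fell to 12 with the pools of session 2 alone, 299 for NYPD against NDL25 ran from 0 to 594, 531 for YE against NYPD from 1 to 992 and 928 for the F test from 165 to 1320. With 2 pools of tumours per strain, a difference had a median SE of 0.108 over all genes.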
